A study of Homo sapiens with 12 samples.

Results

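IOSE80 cells kept for 28 days in 2500 nM bisphenol A (BPA, 3 libraries) were compared with IOSE80 cells kept for 28 days in 0.25 nM BPA (3 libraries). Bisphenol A is a monomer of polycarbonate plastics and epoxy resins. IOSE80 is an immortalised line of human ovarian epithelial cells, and every group shares that 1 line. The same study held 2 analysed libraries of cells given E2, the usual short name of the hormone estradiol, and 3 libraries of cells given 0.1% DMSO, also for 28 days. These 5 libraries enter the estimate of the spread between libraries and are given as background. The labels name no solvent for the BPA and E2 groups and no dose for E2, and the third E2 library was not analysed here. The labels do not tell whether replicates came from separate cultures, and p-values therefore cover only the spread among these libraries, which may be technical. A locus entered the comparison if its expression was at least 1 FPKM (fragment counts divided by transcript length and by library size) in at least 2 of the 6 BPA libraries. This rule kept 11797 of the 30574 loci listed, whichever dose they were higher in, and 10648 of them reached 1 FPKM in all 6 libraries.

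BPA is a weak ligand of the nuclear oestrogen receptors ERα and ERβ, which bind DNA as dimers at oestrogen response elements. It is also known to bind the membrane receptor GPER1, the orphan receptor ERRγ and, less well, the thyroid and pregnane receptors. Cells remove it by joining it to glucuronic acid or sulphate. Oestrogenic compounds can act differently at low and at high dose, which a comparison of doses addresses.

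The 6 BPA libraries were much alike. Their FPKM totals lay between 210156 and 213663, and pairs of them had a Pearson's r of 0.9792 to 0.9843 over the loci (log2 values). The read depth is unknown, since no unit of 1 read can be made out in the FPKM values. Most genes listed as marks of ovarian surface epithelium were low in the line. Of 20 such genes 15 stayed below the level needed for testing, among them WT1 at no more than 0.01 FPKM and GATA4 at no more than 0.02 FPKM in all 11 libraries. The other 5 could be tested, and the 20 genes summed to between 123.76 and 145.04 FPKM in the BPA libraries. CDH1, the cadherin of epithelial junctions, reached at most 0.02 FPKM and EPCAM at most 0.47 FPKM. The intermediate filament gene VIM averaged 693 ± 112 FPKM at 2500 nM and 652 ± 14.9 FPKM at 0.25 nM (SD, n = 3 each), and the keratin gene KRT18 averaged 21.8 ± 0.505 FPKM at 2500 nM and 22.6 ± 1.63 FPKM at 0.25 nM. Leukocyte markers summed to at most 0.05 FPKM in any BPA library. In bulk RNA, fewer cells of a kind and less RNA per cell cannot be told apart.

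Expression differed little between the doses. At an adjusted p under 0.05 (limma with Benjamini-Hochberg adjustment over all loci), 8 of 11797 loci changed, or 0.0678%. 2 of them rose at 2500 nM (0.017%) and 6 fell (0.0509%). At an unadjusted p under 0.05 there were 936 loci (7.93%), of which 255 were higher (2.16%) and 681 lower (5.77%) at 2500 nM. That split depends on the scaling: with the libraries rescaled by the median of their ratios, 484 loci were higher and 379 lower. With the libraries rescaled to equal totals of nuclear loci, 353 were higher and 486 lower. The median log2 change over all loci was -0.03 as deposited and 0.004 after the median-of-ratios rescaling. A log2 change is the mean of log2(FPKM + 1) at 2500 nM minus that at 0.25 nM, a scale that understates the change of loci near or below 1 FPKM.

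The data also bound how large a difference could have been missed. The median standard error (SE) of a log2 change was 0.083. For 9855 loci (83.5%) the 95% interval of the log2 change lay inside -0.5 and 0.5, and for 11414 loci (96.8%) it lay inside -1 and 1. With 0.1 added to the FPKM values in place of 1, the first share was 73.1%. From the same fit, 161 loci (1.36%) passed between 2500 nM BPA and DMSO and 2 loci (0.017%) between 0.25 nM BPA and DMSO. These 2 comparisons share their DMSO libraries with each other and their BPA libraries with the comparison of the doses, so their counts are not independent of it.

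**Figure D1:**
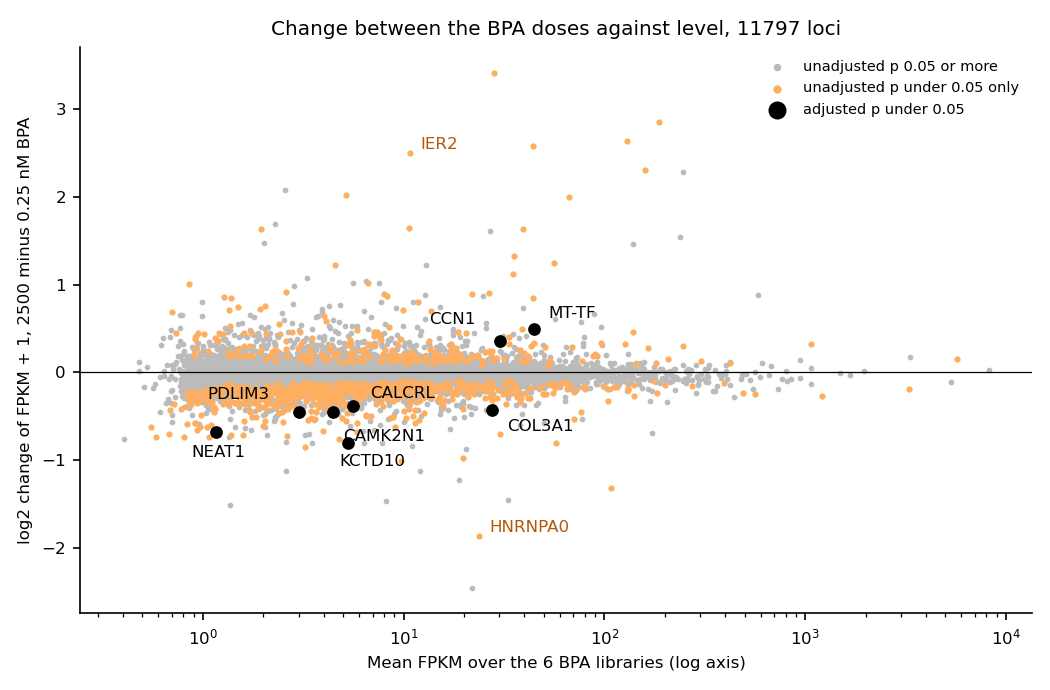
Change between the doses against expression level, 1 point per locus: the x axis is the mean FPKM over the 6 BPA libraries (log axis), the y axis the log2 change of FPKM + 1, 2500 minus 0.25 nM BPA. The 8 loci with an adjusted p under 0.05 (black) have log2 changes between -0.80 and 0.50, while loci with larger changes, such as IER2 at 2.50 and HNRNPA0 at -1.87, did not pass.

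KCTD10 fell with the smallest p among the 8. It encodes an adaptor that brings proteins to the CUL3 ubiquitin ligase. Its expression was 3.25, 3.79 and 3.73 FPKM in the libraries of 2500 nM and 6.85, 7.13 and 7.0 FPKM in those of 0.25 nM. The 3 libraries of 2500 nM had about the same low level, well clear of the others. The log2 change was -0.80 (SE 0.05, limma adjusted p = 0.00105), and the ratio of the mean FPKM values was 0.513. DMSO cells had 7.17 ± 0.114 FPKM (SD, n = 3) and E2 cells 6.73 and 7.08 FPKM, so the 2500 nM libraries also lay below all 5 of these. The locus spans chr12:109448655-109477305 on the minus strand of GRCh38. The call was kept under all 11 other settings and without each of the 11 libraries in turn, with adjusted p values up to 0.0347.

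COL3A1, the gene of type III collagen, a fibrillar collagen of soft tissues, fell as well. It had 23.34, 22.97 and 23.77 FPKM at 2500 nM, against 32.01, 30.43 and 33.04 FPKM at 0.25 nM. The groups did not overlap, and DMSO cells had 31.3 ± 0.894 FPKM (SD, n = 3). The log2 change was -0.43 (SE 0.05, limma adjusted p = 0.0264). The locus, on chr2:188974320-189012746, also holds the microRNA gene MIR3606. It was no longer called without replicate 1 or 3 of either dose, where adjusted p reached 0.115, nor in the fit of the 6 BPA libraries alone or after the median-of-ratios rescaling.

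4 further loci fell. CAMK2N1, which encodes an inhibitor of the calcium/calmodulin-dependent kinase CaMKII, had 3.67, 3.61 and 3.56 FPKM at 2500 nM, against 5.33, 5.08 and 5.50 FPKM at 0.25 nM. CALCRL, the receptor for adrenomedullin and the calcitonin gene-related peptide when joined to a RAMP protein, had 4.82, 4.59 and 4.8 FPKM at 2500 nM, against 6.32, 6.23 and 6.87 FPKM at 0.25 nM. PDLIM3, an actin-associated LIM protein best known from muscle, had 2.45, 2.49 and 2.20 FPKM at 2500 nM, against 3.75, 3.29 and 3.8 FPKM at 0.25 nM. In all 3 genes every library of 2500 nM lay below every library of 0.25 nM, and also below every DMSO library. The log2 changes were -0.45 for CAMK2N1 (SE 0.06, limma adjusted p = 0.0408), -0.38 for CALCRL (SE 0.05, limma adjusted p = 0.0408) and -0.45 for PDLIM3 (SE 0.06, limma adjusted p = 0.0481). DMSO means were 5.82 ± 0.450 FPKM for CAMK2N1, 7.25 ± 0.0900 FPKM for CALCRL and 3.50 ± 0.110 FPKM for PDLIM3 (SD, n = 3 each).

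The other locus that fell was that of NEAT1, the long noncoding RNA on which nuclear paraspeckles are built. It had 0.69, 0.71 and 0.59 FPKM at 2500 nM, against 1.63, 1.82 and 1.56 FPKM at 0.25 nM. The libraries of 0.25 nM were the ones that stood apart here, since DMSO cells had 0.81, 1.09 and 0.70 FPKM and E2 cells 0.66 and 0.73 FPKM. The log2 change was -0.68 (SE 0.09, limma adjusted p = 0.0441), and the ratio of the mean FPKM values was 0.397. At about 1 FPKM the log2 scale with 1 added understates such a ratio, and with 0.1 added the log2 change was -1.21. With 0.1 added, however, the locus was no longer called. This locus, on chr11:65422774-65445540, also names a microRNA and 3 structured RNA families that lie within NEAT1.

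CCN1 rose. It encodes a secreted protein of the extracellular matrix and is a standard target of YAP, the effector of the Hippo pathway. It had 33.13, 35.83 and 33.62 FPKM at 2500 nM, against 26.61, 25.15 and 27.48 FPKM at 0.25 nM. All 3 libraries of 2500 nM were above all 3 of 0.25 nM and above the DMSO cells, which had 26.9 ± 0.296 FPKM (SD, n = 3), while E2 cells had 32.46 and 32.34 FPKM. The log2 change was 0.36 (SE 0.05, limma adjusted p = 0.0408).

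These calls were weaker than that of KCTD10. Without any 1 of the 11 libraries the adjusted p lay between 0.0714 and 0.151 for CALCRL, 0.0714 and 0.149 for CCN1, and 0.0565 and 0.187 for PDLIM3. CAMK2N1 was called again only without DMSO replicate 1 and NEAT1 only without DMSO replicate 2, with adjusted p up to 0.154 and 0.178 without another library. CAMK2N1, CALCRL, NEAT1 and PDLIM3 were also lost without E2 libraries, in the fit of the 6 BPA libraries alone, with no filter and after both rescalings, with adjusted p up to 0.203 for PDLIM3 in the 6-library fit. The same loci were lost with the replicate number added to the fit, and NEAT1 and PDLIM3 also with 0.1 added in place of 1. CCN1 was lost without E2 libraries, in the fit of the 6 BPA libraries alone and with no filter. It was also lost with the replicate number added to the fit and without limma's trend and robust settings. Its adjusted p reached 0.191 over these settings, and it passed after both rescalings. Over all settings and omitted libraries the log2 change lay between 0.33 and 0.40 for CCN1, -0.44 and -0.34 for CALCRL, -0.54 and -0.42 for CAMK2N1, -0.58 and -0.41 for PDLIM3, and -1.21 and -0.64 for NEAT1.

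**Figure D2:**
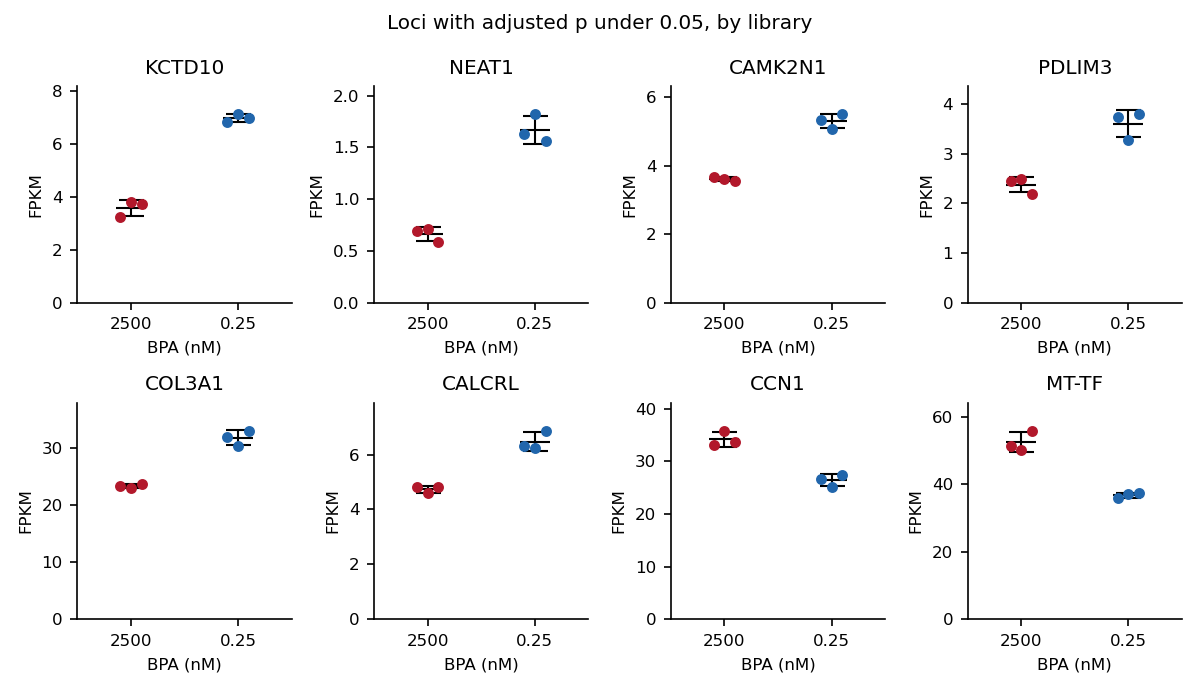
Expression in FPKM of the 8 loci with an adjusted p under 0.05, 1 panel per locus with its axis from 0: points are the 3 libraries of 2500 nM BPA (left) and of 0.25 nM BPA (right), with the mean and SD in black. The groups are apart in every panel, and the ratio of the means is furthest from 1 in NEAT1 (0.397) and KCTD10 (0.513).

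The eighth changed locus was MT-TF, the mitochondrial gene of the tRNA for phenylalanine, which like COL3A1 and NEAT1 was named for its call and lies outside the rule for named genes, as that rule takes loci of a single protein-coding gene. Mitochondria read their own small genome as long transcripts from which tRNAs are cut out between the rRNAs and mRNAs. The files list 22 mitochondrial loci, all of which were tested. 12 of them are single tRNA genes on their annotated strand, 65 to 75 bases long. The 6 tRNA genes of which the libraries of both doses did not overlap are shown first, 5′ to 3′ as DNA from GENCODE 29 transcripts, with the anticodon in capitals.
MT-TF (phenylalanine): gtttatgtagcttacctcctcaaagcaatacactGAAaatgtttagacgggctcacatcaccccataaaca
MT-TV (valine): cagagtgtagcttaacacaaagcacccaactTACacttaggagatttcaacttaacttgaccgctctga
MT-TL1 (leucine): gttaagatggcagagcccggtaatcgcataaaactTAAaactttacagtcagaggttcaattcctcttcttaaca
MT-TM (methionine): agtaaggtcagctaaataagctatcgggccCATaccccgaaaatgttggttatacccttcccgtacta
MT-TW (tryptophan): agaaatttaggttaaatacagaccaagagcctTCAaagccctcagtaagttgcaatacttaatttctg
MT-TK (lysine): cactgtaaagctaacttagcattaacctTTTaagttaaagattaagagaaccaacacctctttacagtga

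MT-TF, at positions 577 to 647 of the mitochondrial genome, had 51.29, 50.20 and 55.79 FPKM at 2500 nM, against 35.92, 36.97 and 37.31 FPKM at 0.25 nM. DMSO cells had 28.98, 31.08 and 33.14 FPKM and E2 cells 57.63 and 55.47 FPKM, so that the DMSO libraries were lowest and those of 0.25 nM next. The log2 change between the doses was 0.50 (SE 0.06, limma adjusted p = 0.0344). It stayed called without replicate 2 of 2500 nM or replicate 1 or 3 of DMSO, and not without any of the other 8 libraries, with adjusted p up to 0.115. It was also lost without E2 libraries, in the 6-library fit, with no filter and after the median-of-ratios rescaling. MT-TW had 15.97, 14.51 and 15.28 FPKM at 2500 nM, against 8.14, 7.01 and 10 FPKM at 0.25 nM, with a log2 change of 0.80 (limma adjusted p = 0.114), which did not pass. MT-TV averaged 181 ± 8.46 FPKM at 2500 nM and 149 ± 8.56 FPKM at 0.25 nM (SD, n = 3 each), with a log2 change of 0.28 (limma adjusted p = 0.187). Over the 12 tRNA loci, 6 were higher and 0 lower at an unadjusted p under 0.05, against 2.16% and 5.77% of all loci, and the median log2 change was 0.25. The other 6, such as MT-TI with 26.2 ± 3.35 FPKM at 2500 nM and 25.4 ± 2.56 FPKM at 0.25 nM, overlapped between the doses. The summed FPKM of the 12 was 749.7, 779.0 and 743.1 at 2500 nM, 691.8, 598.0 and 656.7 at 0.25 nM, and 696.2, 746.1 and 688.0 in DMSO cells.

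The rRNAs of the mitochondrial ribosome had the same direction without passing. MT-RNR1, the small-subunit rRNA, had 1151.55, 989.06 and 1464.20 FPKM at 2500 nM, against 936.41, 935.45 and 966.11 FPKM at 0.25 nM, with a log2 change of 0.33 (limma adjusted p = 0.570). MT-RNR2, the large-subunit rRNA, averaged 5990 ± 171 FPKM at 2500 nM and 5382 ± 256 FPKM at 0.25 nM (SD, n = 3 each), with a log2 change of 0.16 (limma adjusted p = 0.462). DMSO cells averaged 6255 FPKM and E2 cells 5949 FPKM, so in MT-RNR2 the 0.25 nM libraries stood apart. Most mitochondrial mRNAs lie in 4 loci that join several genes, so single mRNAs could not be told apart. The longest of these loci, from MT-ND2 to MT-CYB, had 5115 ± 472 FPKM at 2500 nM and 5494 ± 40.2 FPKM at 0.25 nM. This was opposite to the rRNAs and without overlap, but did not pass (log2 change -0.11, limma adjusted p = 0.811). The most abundant of them, from MT-ATP8 to MT-CO3, averaged 8308 FPKM at 2500 nM and 8132 FPKM at 0.25 nM, with overlap. MT-ND3, a single-gene locus, averaged 1987 and 1959 FPKM, also with overlap. The main locus of MT-ND1, at positions 3307 to 4262, averaged 3511 ± 63.2 FPKM at 2500 nM and 3113 ± 62.6 FPKM at 0.25 nM, with a log2 change of 0.17 (limma adjusted p = 0.636). All mitochondrial loci together took 13.4 ± 0.364% of the FPKM at 2500 nM and 12.6 ± 0.0187% at 0.25 nM (SD, n = 3 each). Every library of 2500 nM was above every library of 0.25 nM, and the exact two-sided permutation test gave p = 0.1, the smallest value that 3 against 3 libraries allow. DMSO libraries had 13.79, 14.31 and 13.63%, each above every BPA library, so the 0.25 nM libraries lay further from DMSO than those of 2500 nM. The E2 libraries were split, with 1 above and 1 below every BPA library. Since FPKM values share 1 total, a larger mitochondrial share lowers the values of all other loci. Its part in the excess of lower loci was not tested beyond the rescaling above.

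**Figure D3:**
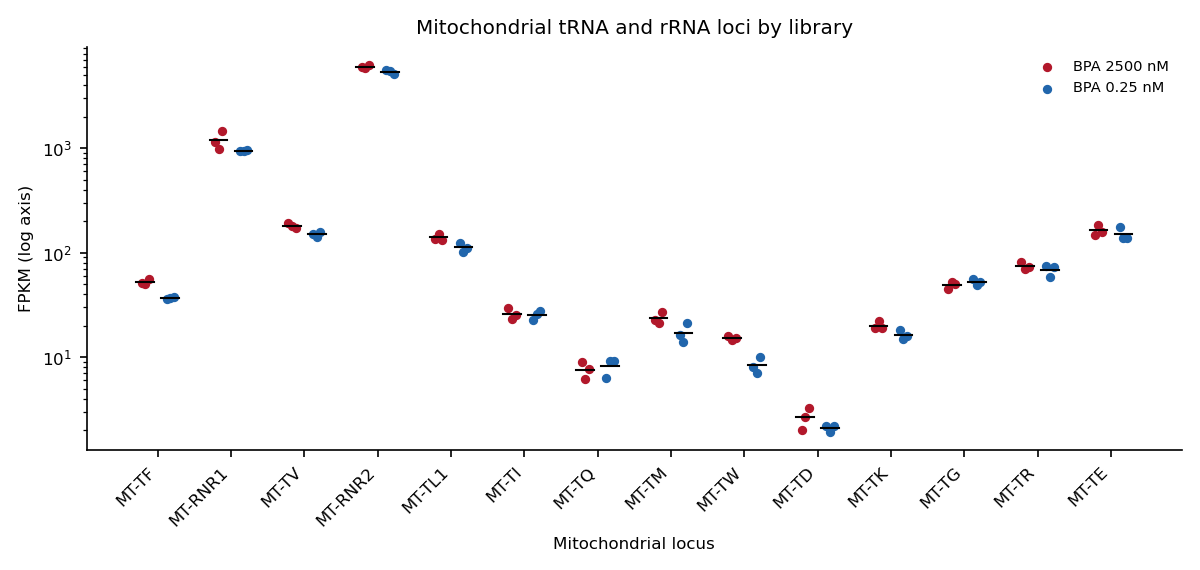
FPKM (log axis) of 12 mitochondrial tRNA and 2 rRNA loci in the order of their position, with 1 point per library of 2500 nM BPA (left of each pair) and of 0.25 nM BPA (right) and the mean as a black line. The groups are apart in MT-TF, MT-RNR1, MT-TV, MT-RNR2, MT-TL1, MT-TM, MT-TW and MT-TK, always with 2500 nM higher.

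Just short of the threshold stood ID2 and PCK2. ID2, an inhibitor of basic helix-loop-helix transcription factors and a target of BMP signalling, had 49.49, 46.93 and 46.67 FPKM at 2500 nM, against 37.28, 38.61 and 39.57 FPKM at 0.25 nM, a log2 change of 0.30 (limma adjusted p = 0.0505). PCK2, the mitochondrial phosphoenolpyruvate carboxykinase, had 14.74, 12.87 and 13.13 FPKM at 2500 nM, against 17.86, 17.79 and 18.21 FPKM at 0.25 nM, a log2 change of -0.38 (limma adjusted p = 0.0538). In both genes the libraries of the doses did not overlap, but in PCK2 those of 0.25 nM stood above DMSO cells, which had 14.6 ± 0.147 FPKM. With loci under a mean of 5 FPKM left out, both passed, with adjusted p values of 0.0429 and 0.0446.

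Other genes with small p values that did not pass covered varied functions. Higher at 2500 nM were ODC1, the first enzyme of polyamine synthesis, with 98.08, 99.34 and 95.93 FPKM, against 85.20, 85.48 and 85.55 FPKM at 0.25 nM (log2 change 0.19, limma adjusted p = 0.132). DCTPP1, which degrades modified deoxycytidine triphosphates, averaged 37.5 ± 0.591 FPKM at 2500 nM and 29.8 ± 0.865 FPKM at 0.25 nM (log2 change 0.32, limma adjusted p = 0.152). The neuronal intermediate filament gene INA, the transcription factor gene GATA2, the kinesin gene KIF1C and the insulin-like growth factor binding protein gene IGFBP3 had log2 changes of 0.19, 0.32, 0.17 and 0.51, with limma adjusted p values between 0.187 and 0.292. None of these 6 genes overlapped between the doses.

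Lower at 2500 nM was XPA, a damage-binding protein of nucleotide excision repair, with 8.74, 7.76 and 8.24 FPKM, against 13.24, 12.01 and 11.42 FPKM at 0.25 nM (log2 change -0.52, limma adjusted p = 0.101). CCNG2, an atypical cyclin linked to cell cycle arrest, had 2.27, 1.93 and 1.86 FPKM at 2500 nM, against 2.93, 3.0 and 3.19 FPKM at 0.25 nM, with DMSO cells higher still at 3.84 ± 0.254 FPKM (log2 change -0.42, limma adjusted p = 0.101). R3HDM2 and FSD1 had log2 changes of -0.45 and -0.35 (limma adjusted p = 0.0828 and 0.114). UBE2K, a ubiquitin-conjugating enzyme, had 12.88, 14.91 and 11.40 FPKM at 2500 nM, against 25.11, 26.64 and 27.52 FPKM at 0.25 nM, a ratio of 0.494 between the mean FPKM values (log2 change -0.97, limma adjusted p = 0.128). Its DMSO libraries were split at 25.90, 15.95 and 24.54 FPKM, and without the middle one its adjusted p was 0.022.

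The receptors known to bind BPA or oestrogen offered little contrast. Of 21 such genes 9 could be tested and 0 passed, also at an unadjusted p. ESR1 and ESR2, which encode ERα and ERβ, stayed at no more than 0.02 and 0.04 FPKM in all 11 libraries. GPER1 had 1.96, 1.77 and 2.22 FPKM at 2500 nM, against 1.72, 2.12 and 2.50 FPKM at 0.25 nM, with both doses covering the same range (log2 change -0.06, SE 0.21, limma adjusted p = 0.965). ESRRA, an orphan receptor related to ERα, averaged 19.7 ± 1.17 FPKM at 2500 nM and 19.3 ± 1.73 FPKM at 0.25 nM (log2 change 0.03, SE 0.11). PPARD, a fatty acid receptor, averaged 9.32 ± 0.537 FPKM at 2500 nM and 10.2 ± 0.587 FPKM at 0.25 nM (log2 change -0.12, limma adjusted p = 0.649). PPARG, THRA, NR2F2, RXRA and RXRB had log2 changes between -0.06 and 0.02, and PPARA, near 1 FPKM, one of -0.32 with an SE of 0.28. Among the other genes of the list, ESRRB, NR3C1, NR1I3, RORA and THRB were too low to test, ESRRG, PGR and NR1I2 have no locus of that name, and NR2F6 shares its locus with another gene.

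Among 14 tested targets of the oestrogen receptor in other tissues, 0 passed, also at an unadjusted p, and their median log2 change was 0.02. After the median-of-ratios rescaling 2 were higher at an unadjusted p under 0.05. MYC had 4.18, 3.86 and 4.20 FPKM at 2500 nM, against 3.40, 3.74 and 2.55 FPKM at 0.25 nM (log2 change 0.27, limma adjusted p = 0.732), and GREB1 stayed at no more than 0.11 FPKM. Of 6 tested genes of BPA conjugation and efflux 0 passed, also at an unadjusted p. PAPSS1, which makes the sulphate donor, averaged 29.9 ± 1.29 FPKM at 2500 nM and 30.9 ± 3.64 FPKM at 0.25 nM. Of 8 tested genes of the aryl hydrocarbon receptor, which answers to many planar pollutants, 2 were lower at an unadjusted p under 0.05, or 1 higher and 2 lower after that rescaling. One of the 2 was CYP1A1, its best known target, with 0.93, 0.80 and 0.78 FPKM at 2500 nM, against 1.21, 1.28 and 1.31 FPKM at 0.25 nM (log2 change -0.30, limma adjusted p = 0.402). AHR, the gene of the receptor itself, stayed at no more than 0.06 FPKM in all 11 libraries. The 11 tested genes of steroid synthesis had a log2 change under 0, as did 7384 of all 11797 loci, but 4 of the 11 were above 0 after the median-of-ratios rescaling and 3 after the rescaling without mitochondrial loci. One of the 11, HSD17B8, had an unadjusted p under 0.05. The list summed to 185.58, 188.69 and 187.44 FPKM at 2500 nM, against 201.49, 205.90 and 201.01 FPKM at 0.25 nM. DMSO libraries had 191.29, 175.91 and 184.22 FPKM, so the 0.25 nM libraries stood apart. STAR, HSD3B1, CYP19A1 and HSD17B2, also on the list, stayed at no more than 0.03 FPKM in all 11 libraries.

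Gene groups were described by counts at an unadjusted p under 0.05, to be read against 2.16% of all loci higher and 5.77% lower. The group with the most genes higher was that of the nucleolar factors that make ribosomes. Of 57 tested members 13 were higher and 1 lower, and none passed after adjustment. 45 of the 57 had a log2 change above 0, and in 23 all libraries of 2500 nM were above all of 0.25 nM, against 4.75% of all loci. The median log2 change was 0.09, against -0.03 over all loci, and 21 members were higher and 0 lower after the median-of-ratios rescaling. DKC1, the pseudouridine synthase of box H/ACA particles, had 28.43, 31.88 and 26.53 FPKM at 2500 nM, against 23.10, 23.93 and 25.35 FPKM at 0.25 nM (log2 change 0.25, limma adjusted p = 0.402). NOP56, a core protein of box C/D particles, had 44.40, 45.63 and 43.83 FPKM at 2500 nM, against 40.32, 38.00 and 38.45 FPKM at 0.25 nM (log2 change 0.19, limma adjusted p = 0.429). NOP16 and UTP14A had log2 changes of 0.18 and 0.15. NPM1, the most abundant member, averaged 321 ± 24.2 FPKM at 2500 nM and 311 ± 14.7 FPKM at 0.25 nM, and overlapped.

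The ribosomal proteins themselves did not share this direction. Of 42 tested genes of the large subunit 1 was higher and 0 lower, with a median log2 change of -0.07, and of 28 of the small subunit 0 were higher and 3 lower, with a median of -0.08. After the median-of-ratios rescaling those medians were -0.03 and -0.04. The summed FPKM of the large subunit was 7606.25, 7662.15 and 7488.32 at 2500 nM, against 7851.49, 8289.97 and 7864.07 at 0.25 nM. DMSO cells had 7459.52, 6856.10 and 7463.79, so here the 0.25 nM libraries stood apart. Small-subunit sums were 6486.81, 6688.56 and 6496.75 at 2500 nM and 6816.73, 7260.82 and 6830.37 at 0.25 nM, with DMSO libraries at 6467.97, 5864.85 and 6874.10. RPS2 averaged 516 ± 52.3 FPKM at 2500 nM and 611 ± 30.9 FPKM at 0.25 nM (log2 change -0.25, unadjusted p = 0.0141, not past adjustment), and RPL6 was the 1 higher gene, at 149 ± 4.71 and 139 ± 2.82 FPKM. Of 65 mitochondrial ribosomal proteins 2 were higher and 2 lower, of 35 translation initiation factors 0 and 2, and of 22 cytosolic tRNA synthetases 1 and 1. After the median-of-ratios rescaling these counts were 5 and 0, 1 and 1, and 2 and 0, and the small subunit had 1 lower gene. EIF2S2 averaged 122 ± 7.04 FPKM at 2500 nM and 140 ± 1.31 FPKM at 0.25 nM (log2 change -0.20).

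**Figure D4:**
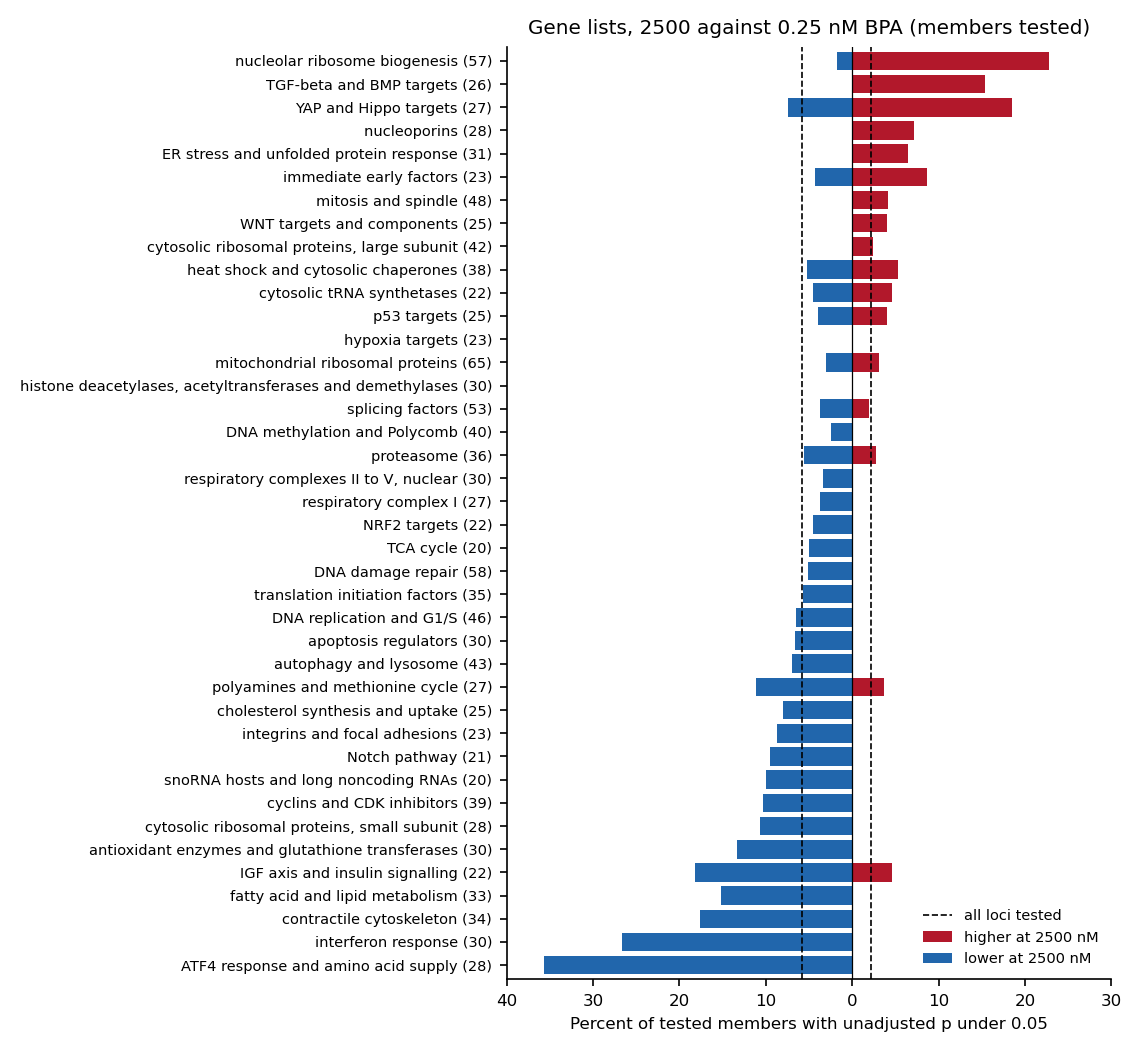
Percent of tested members with an unadjusted p under 0.05 in each gene list of at least 20 tested members, lower at 2500 nM to the left (blue) and higher to the right (red), number tested in brackets; dashed lines mark 5.77% and 2.16% of all loci. Nucleolar ribosome biogenesis stands furthest right and the ATF4 response furthest left.

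Among the lists of at least 20 tested members, the largest share of lower genes was in the ATF4 response, the programme that cells use to make and import amino acids when these are short. Of 28 tested members 0 were higher and 10 lower, and none passed after adjustment. The median log2 change was -0.12, and 5 members were lower and 0 higher after the median-of-ratios rescaling. ATF4 itself had 109.14, 105.49 and 113.43 FPKM at 2500 nM, against 122.56, 123.13 and 123.09 FPKM at 0.25 nM (log2 change -0.17, limma adjusted p = 0.455). TRIB3, a pseudokinase it induces, had 9.80, 8.86 and 9.15 FPKM at 2500 nM, against 12.88, 11.78 and 11.37 FPKM at 0.25 nM (log2 change -0.34, limma adjusted p = 0.364). PSAT1 and PHGDH, enzymes of serine synthesis, had log2 changes of -0.15 and -0.23, and the cystine transporter gene SLC7A11 one of -0.25. The groups did not overlap in any of these 5 genes. Of the 31 tested genes of the unfolded protein response of the endoplasmic reticulum 2 were higher and 0 lower, and CALR, its most abundant member, averaged 384 ± 5.71 FPKM at 2500 nM and 390 ± 11.3 FPKM at 0.25 nM.

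Among those lists, interferon-response genes had the next largest share of lower members, with 0 of 30 higher and 8 lower, and none past adjustment. In 13 of the 30 every library of 2500 nM was below every library of 0.25 nM, against 12.1% of all loci. The median log2 change was -0.11, and after the median-of-ratios rescaling 6 members were lower and 0 higher. GBP2, a guanylate-binding protein, had 4.02, 4.27 and 3.92 FPKM at 2500 nM, against 4.96, 4.97 and 4.88 FPKM at 0.25 nM, with DMSO cells at 5.93 FPKM on average (log2 change -0.23, limma adjusted p = 0.187). IFIT2, an RNA-binding antiviral protein, had 10.58, 9.46 and 9.95 FPKM at 2500 nM, against 12.37, 11.65 and 12.61 FPKM at 0.25 nM (log2 change -0.27, limma adjusted p = 0.402). IFIT3, GBP1 and IFIT1 had log2 changes of -0.22, -0.15 and -0.12, all with groups apart. BST2, the most abundant member, averaged 243 ± 7.88 FPKM at 2500 nM and 265 ± 11.9 FPKM at 0.25 nM (log2 change -0.12, limma adjusted p = 0.670). In the 7 tested genes of MHC class I presentation, which interferon also controls, 0 had an unadjusted p under 0.05, with B2M at 37.6 ± 1.63 FPKM at 2500 nM and 37.3 ± 1.39 FPKM at 0.25 nM.

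Among 27 tested targets of YAP, CCN1 was the 1 that passed, and 5 were higher and 2 lower at an unadjusted p under 0.05. AMOTL2, a junction protein that restrains YAP, had 8.65, 8.13 and 8.34 FPKM at 2500 nM, against 6.72, 5.16 and 5.66 FPKM at 0.25 nM, and 4.50 FPKM on average in DMSO cells (log2 change 0.46, limma adjusted p = 0.114). CCN2, a matrix protein related to CCN1, had 15.22, 14.89 and 14.58 FPKM at 2500 nM, against 12.18, 11.55 and 12.93 FPKM at 0.25 nM (log2 change 0.27, limma adjusted p = 0.402). ANKRD1, the most abundant, averaged 438 ± 10.7 FPKM at 2500 nM and 406 ± 6.02 FPKM at 0.25 nM (log2 change 0.11, limma adjusted p = 0.498). The 2 lower genes were MYOF and AXL, with log2 changes of -0.15 and -0.24. The median over the list was 0.01, so the higher genes were a subset of it.

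YAP acts through the TEAD factors, whose site holds the letters GGAATG. The promoters of CCN2 and AMOTL2, 300 bases around a RefSeq start on GRCh38.p14, are shown because both genes were higher together. CCN1, the target that passed, had no promoter in the reference used. GGAATG and its reverse complement are in capitals.
CCN2 (chr6:131951323-131951622, minus strand): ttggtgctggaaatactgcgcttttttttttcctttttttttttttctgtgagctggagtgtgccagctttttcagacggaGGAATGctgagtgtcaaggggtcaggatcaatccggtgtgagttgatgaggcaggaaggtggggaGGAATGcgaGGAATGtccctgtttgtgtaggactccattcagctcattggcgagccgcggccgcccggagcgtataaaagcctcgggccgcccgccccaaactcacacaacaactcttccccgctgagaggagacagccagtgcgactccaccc
AMOTL2 (chr3:134374398-134374697, minus strand): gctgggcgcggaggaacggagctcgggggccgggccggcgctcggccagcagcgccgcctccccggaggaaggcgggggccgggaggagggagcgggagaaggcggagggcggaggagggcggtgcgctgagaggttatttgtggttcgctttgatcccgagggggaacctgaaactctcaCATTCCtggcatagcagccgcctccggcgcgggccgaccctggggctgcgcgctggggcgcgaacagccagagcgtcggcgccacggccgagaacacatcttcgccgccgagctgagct
The letters occurred 3 times in the CCN2 window and 1 time in this AMOTL2 window. A window at another RefSeq start of AMOTL2, chr3:134375368-134375667, held 0 of them. Of the 35116 promoters searched, which left out 1 chromosome, 14% held them on either strand. The full oestrogen response element, GGTCA and its reverse complement spaced by 3 bases, occurred in 0.057% of the promoters searched. It occurred in none of the windows of KCTD10, CALCRL, PDLIM3, ID2, CCN2 and AMOTL2. The core of the xenobiotic response element, GCGTG, occurred 1 time in the KCTD10 window and 1 time in the other AMOTL2 window. It occurred 2 times in the ID2 window and 6 times in each TRIB3 window, and 36.5% of the promoters searched held it at least 1 time. A match is a description of these letters, and no binding was measured.

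Of 26 tested targets of TGF-beta and BMP signals 4 were higher and 0 lower. Besides ID2 and CCN2 these were ID1 and ID3. ID3 had 271.57, 266.64 and 274.09 FPKM at 2500 nM, against 200.86, 225.73 and 235.30 FPKM at 0.25 nM (log2 change 0.30, limma adjusted p = 0.402). ID1 had 108.27, 104.78 and 107.51 FPKM at 2500 nM, against 78.56, 85.05 and 90.64 FPKM at 0.25 nM (log2 change 0.33, limma adjusted p = 0.493). The 3 ID genes were thus alike in size of change and in the separation of the doses. The median over the list, 0.03, was below 0 without replicate 1 or 2 of 2500 nM or replicate 2 of 0.25 nM.

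**Figure D5:**
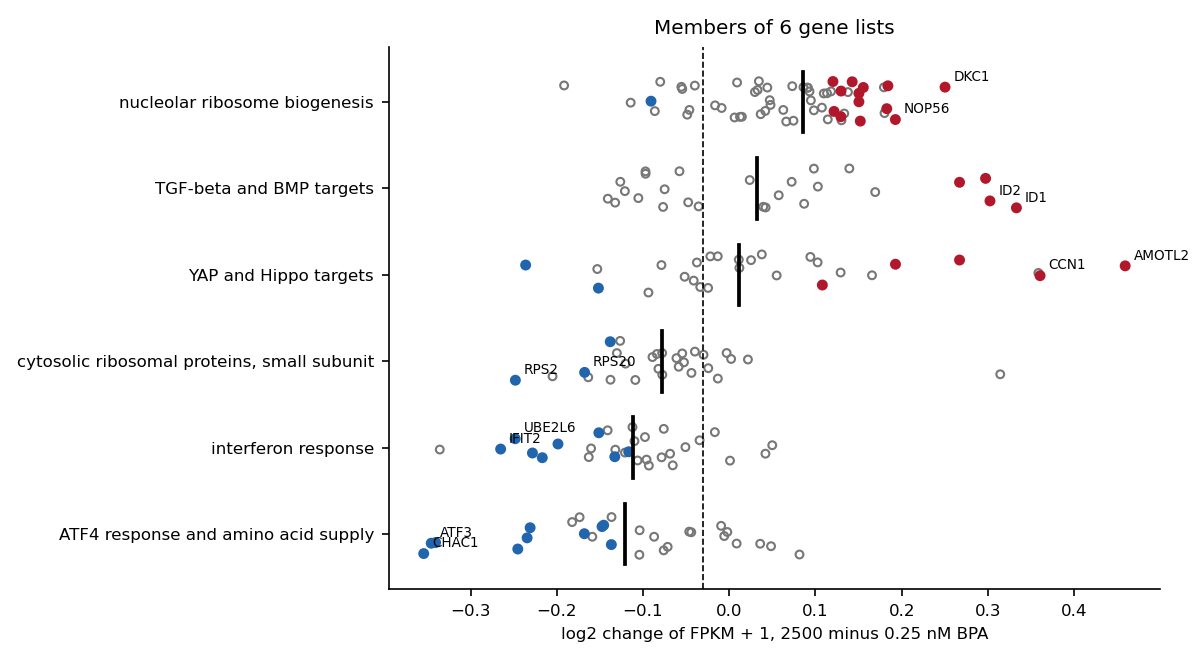
Log2 change of FPKM + 1 (x axis, 2500 minus 0.25 nM BPA) for each tested member of 6 gene lists: filled points have an unadjusted p under 0.05, open points do not, black bars are list medians and the dashed line is the median of all loci, -0.03. Nucleolar factors lie mostly right of 0 and ATF4 and interferon genes mostly left, while a few YAP and BMP targets stand out from lists that lie around 0.

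Feedback genes of MAP kinase signalling and early response genes were mixed. Of 19 tested feedback genes 3 were higher, namely DUSP2, SPRY2 and DUSP5, and 2 were lower, namely ETV1 and ETV4, or 5 higher and 1 lower after the median-of-ratios rescaling. DUSP2, a nuclear MAP kinase phosphatase, averaged 8.04 ± 0.730 FPKM at 2500 nM and 6.28 ± 0.184 FPKM at 0.25 nM (log2 change 0.31, limma adjusted p = 0.405). ETV1 averaged 3.66 ± 0.485 FPKM at 2500 nM and 4.92 ± 0.106 FPKM at 0.25 nM (log2 change -0.35, limma adjusted p = 0.245). EGR1, an early response factor, had 23.47, 25.19 and 24.19 FPKM at 2500 nM, against 20.57, 21.63 and 23.32 FPKM at 0.25 nM, and did not pass even without adjustment. In the insulin-like growth factor group, IGFBP3 was higher and 4 of 22 genes were lower. They include TXNIP, a sensor of glucose, with 5.05, 5.44 and 4.74 FPKM at 2500 nM, against 7.46, 6.18 and 6.59 FPKM at 0.25 nM and 9.45 FPKM on average in DMSO cells (log2 change -0.35, limma adjusted p = 0.251), and IGFBP6 (log2 change -0.36).

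Contractile genes followed PDLIM3 in part. Of 34 tested members 0 were higher and 6 lower, PDLIM3 included, or 1 higher and 3 lower after the median-of-ratios rescaling. CSRP2, a LIM protein of smooth muscle, had 2.92, 2.87 and 2.61 FPKM at 2500 nM, against 3.79, 3.96 and 3.53 FPKM at 0.25 nM (log2 change -0.32, limma adjusted p = 0.402). CNN1 and ACTA2, which encode calponin and smooth muscle actin, had log2 changes of -0.21 and -0.20. The smooth muscle and pericyte markers showed the same values from another list: 4 of 5 tested were lower at an unadjusted p under 0.05 (2 after the median-of-ratios rescaling, 3 after that without mitochondrial loci), with NOTCH3 at 5.40, 5.37 and 5.65 FPKM at 2500 nM, against 6.61, 6.69 and 6.80 FPKM at 0.25 nM. Their summed level lay between 104.73 and 116.70 FPKM at 2500 nM and between 116.53 and 120.03 FPKM at 0.25 nM. The sum was 105.75, 105.04 and 108.75 FPKM in DMSO cells and 112.40 and 101.93 FPKM in E2 cells, all below the 0.25 nM libraries. The defining markers MYH11 and DES stayed at no more than 0.12 and 0.05 FPKM. Their part in the contractile result was not tested.

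In the matrix group of 17 collagens and basement membrane genes, COL3A1 was the 1 that fell, and HSPG2 was also lower at an unadjusted p under 0.05, with 1 gene higher and 2 lower after the median-of-ratios rescaling. COL5A2, the most abundant, had 84.12, 82.46 and 83.43 FPKM at 2500 nM, against 77.27, 75.30 and 80.73 FPKM at 0.25 nM, opposite to COL3A1 (log2 change 0.10, limma adjusted p = 0.632). COL1A1 stayed at no more than 0.56 FPKM. Of 15 genes of collagen processing 0 had an unadjusted p under 0.05. Of 19 proteases and inhibitors 0 were higher and 4 lower, or 2 and 3 after the median-of-ratios rescaling. Among the 4 was TIMP1, the abundant inhibitor of matrix metalloproteinases, with 458.95, 433.57 and 461.02 FPKM at 2500 nM, against 488.84, 569.77 and 532.25 FPKM at 0.25 nM (log2 change -0.23, limma adjusted p = 0.545).

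The metabolic groups differed among themselves. Of 33 genes of fatty acid metabolism 0 were higher and 5 lower, or 0 and 2 after the median-of-ratios rescaling. SCD5, a desaturase, averaged 5.61 ± 0.316 FPKM at 2500 nM and 6.82 ± 0.192 FPKM at 0.25 nM (log2 change -0.24, limma adjusted p = 0.292), and ACADM, of mitochondrial fatty acid oxidation, 6.77 ± 0.800 and 9.09 ± 0.870 FPKM (log2 change -0.38, limma adjusted p = 0.389). Of 30 antioxidant enzymes and glutathione transferases 0 were higher and 4 lower, or 0 and 3 after that rescaling. GSTA4, which removes lipid aldehydes, had 10.90, 8.74 and 7.31 FPKM at 2500 nM, against 13.42, 13.95 and 13.74 FPKM at 0.25 nM and 16.0 FPKM on average in DMSO cells (log2 change -0.57, limma adjusted p = 0.187). Of 27 nuclear genes of respiratory complex I 0 were higher and 1 lower, and of 30 of complexes II to V 0 and 1. In glycolysis 0 of 19 were higher and 1 lower, with GAPDH at 1647 ± 36.0 FPKM at 2500 nM and 1686 ± 58.4 FPKM at 0.25 nM. Among 15 zinc genes 3 were higher, namely the importer SLC39A8, the exporter SLC30A1 and the zinc-sensing factor MTF1, with log2 changes of 0.44, 0.22 and 0.15, and 3 were higher after the rescaling too. The median log2 change of these 15 genes was -0.06.

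The cell cycle gave little. Of 46 genes of DNA replication 0 were higher and 3 lower, and of 48 of mitosis 2 were higher and 0 lower. CCNB1, the mitotic cyclin, averaged 101 ± 4.12 FPKM at 2500 nM and 100.3 ± 4.54 FPKM at 0.25 nM, and PCNA 173 ± 21.1 and 175 ± 12.6 FPKM. WEE1, the kinase that holds back entry into mitosis, had 2.17, 2.86 and 3.02 FPKM at 2500 nM, against 4.24, 4.33 and 4.14 FPKM at 0.25 nM (log2 change -0.52, limma adjusted p = 0.128), but DMSO cells averaged 2.58 FPKM, so the 0.25 nM libraries stood apart. Of 58 genes of DNA repair 0 were higher and 3 lower, XPA among them, and of 25 p53 targets 1 was higher and 1 lower. Of 30 regulators of apoptosis 0 were higher and 2 lower, of 36 proteasome genes 1 and 2, and of 38 chaperones 2 and 2. These splits depend on the scaling: after the median-of-ratios rescaling 1 replication gene was higher and 0 lower, 3 p53 targets were higher and 0 lower, 0 apoptosis regulators were higher and 1 lower, 1 proteasome gene was higher and 0 lower, and 5 chaperones were higher and 0 lower.

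The largest changes in size were not the called ones. 39 loci had a log2 change of at least 1 in size, 29 of them higher and 10 lower, and 0 of the 39 passed. In 38 of them the libraries inside at least 1 of the 4 groups spanned a log2 range of at least 1, which only 5.04% of all loci did, and the doses did not overlap in 11. IER2, an early response gene, had 18.19, 19.35 and 19.30 FPKM at 2500 nM, against 2.02, 2.49 and 3.16 FPKM at 0.25 nM. The DMSO libraries had 8.18, 3.25 and 2.53 FPKM and the E2 libraries 19.07 and 2.34 FPKM, so the same high and low values occurred within 1 group. The change on the log2 scale was 2.50 (SE 0.57, limma adjusted p = 0.325), and it passed in the fit of the 6 BPA libraries alone (limma adjusted p = 0.00608), which holds no DMSO or E2 library. SYDE1 had 11.03, 10.24 and 11.52 FPKM at 2500 nM, against 5.71, 5.65 and 5.20 FPKM at 0.25 nM, with DMSO libraries of 10.76, 10.11 and 5.71 FPKM. It too passed in the 6-library fit (limma adjusted p = 0.0282) and not in the fit of all libraries (limma adjusted p = 0.402). HNRNPA0 also varied widely within groups, and had 6.81, 7.09 and 17.20 FPKM at 2500 nM, against 37.63, 37.41 and 36.50 FPKM at 0.25 nM, and DMSO libraries of 7.56, 34.97 and 6.90 FPKM. Of the loci at the edge of the filter, KCNAB2 and PPM1H were just inside, with 1.0 FPKM in their second highest library, and STPG1 and SUV39H1 just outside, with 0.99 FPKM.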

How the data were processed

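Total RNA of IOSE80 cells was read on a NovaSeq instrument, per the labels' protocols. The authors deposited 1 table per library with an FPKM value, rounded to 2 decimals, for each of 30574 loci. The submitters' processing notes name HISAT, StringTie, UMI-tools and edgeR without versions, and the build hg19, but 74.9% of the 14123 Ensembl loci found in GENCODE 29 have its GRCh38 start and end, so coordinates are given as GRCh38. No source used here says whether strand was kept, and loci that name several genes were kept whole. FPKM values are relative to each library's total. Low values show no steps of single reads (19.2% of ratios to a locus's smallest value within 0.1 of a whole number, with 20% from chance), so depth is unknown and no count test was run.

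Values were analysed as log2(FPKM + 1) with limma 3.58.1 (trend and robust settings, statmod 1.5.0, R 4.3.3), with 1 mean per group over 11 libraries, which leaves 7 residual degrees of freedom, and Benjamini-Hochberg adjustment over the 11797 loci tested. The fit was tested on simulated data. Python 3.11.15 served for the other steps. Samples were grouped by their labels, and the third E2 library was not used here. Named genes are called protein-coding loci and the 12 with the smallest p in a direction with few calls, up to 4 members with the smallest p and the most abundant member of each list, all BPA and oestrogen receptors, the largest changes without overlap and the edge of the filter. Further list members, called loci of other kinds and mitochondrial loci were named after their values were seen. The gene lists were chosen with earlier results of these data known. Alternatives were other pseudocounts (0.1 and 0.5), filters, scalings, subsets of libraries, a replicate block and leaving out each library. Results for some genes are not reported here.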

Additional observations from a re-analysis of the deposited data

How the results depend on the processing

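KCTD10 was called under every alternative run. The count of 8 called loci fell to 2 without E2 libraries in the fit (0 higher, 2 lower) and to 2 after the median-of-ratios rescaling (1 higher, 1 lower). It was 4 after rescaling without mitochondrial loci (2 lower) and 3 with the 6 BPA libraries alone (1 lower, and 1 of the 3 among the 8). Without limma's trend and robust settings 1 locus was higher. No filter gave 8 loci, of which 2 were shared with the reported ones. Leaving out 1 library gave 2 to 10 called loci, 0 to 3 of them higher and 1 to 7 lower. An omitted E2 library leaves 1, assumed to vary like the other groups, and then 2 loci were called.

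The loci with an unadjusted p under 0.05, higher or lower, numbered 490 at a mean of at least 5 FPKM (166 higher, 324 lower) and 1645 with no filter (529 higher, 1116 lower). After the median-of-ratios rescaling 484 were higher and 379 lower. Leaving out 1 library gave 737 to 1113, with 193 to 302 higher and 517 to 811 lower. The share of intervals inside 0.5 on either side of 0 was 79.6% to 83.8%, and the mitochondrial share was higher by 0.594 to 0.93 percentage points. The causes were not tested.

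Replicate numbers are shared by the groups, but same-numbered libraries did not deviate together (correlations of -0.069, -0.052 and -0.074). With the replicate block 3 loci were called (1 higher, 2 lower), all among the 8. Of the values for 163 named genes under the alternatives, 3425 kept their side of the threshold, 102 lost it and 15 gained it, and none changed direction while called. Only called loci could lose it, so the 102 losses all fell on the 8 called loci, with none for KCTD10. PDLIM3, for example, stayed called in 3 of 10 other settings and without 0 of the 11 libraries. Most values that kept their side belong to genes not called in the reported fit. Of those for 61 list medians, 1225 stayed and 117 moved beyond the spread between replicates. Depth is unknown, and 3 libraries per dose limit what could be detected.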

Other observations

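Several structured noncoding RNAs had high values in replicates 1 and 3 of 2500 nM BPA and low ones in replicate 2. RMRP, the RNA of RNase MRP, had 46.31, 1.67 and 117.87 FPKM at 2500 nM, against 1.52, 1.87 and 0.71 FPKM at 0.25 nM, and 4.64, 16.33 and 11.86 FPKM in DMSO cells. RN7SK, the RNA that holds back the elongation factor P-TEFb, had 68.01, 4.27 and 175.52 FPKM at 2500 nM, against 5.82, 6.56 and 4.76 FPKM at 0.25 nM. RPPH1, the RNA of RNase P, had 9.53, 0.21 and 19.66 FPKM at 2500 nM, against 0.53, 0.61 and 0.60 FPKM at 0.25 nM. None of these 3 loci passed the threshold, and replicate 2 of 2500 nM lay within or near the range of 0.25 nM in each.

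MTR, the methionine synthase, averaged 4.22 FPKM at 2500 nM and 6.20 FPKM at 0.25 nM, a log2 change of -0.46 that did not pass. CRABP2, a carrier of retinoic acid, averaged 4.09 FPKM at 2500 nM and 5.46 FPKM at 0.25 nM, and did not pass either.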
